A study of Mus musculus with 4 samples.

Results

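The podocyte is the epithelial cell that wraps the capillaries of the kidney's filter. Neighbouring podocytes are joined by the slit diaphragm, a thin junction built on nephrin, which is tethered through adaptor proteins to the actin of the foot processes. The negatively charged coat of podocalyxin holds the foot processes apart, and the transcription factor WT1 is needed both to form nephrons and to keep podocytes differentiated. In the mouse kidney of late gestation, podocytes of several stages are present side by side with nephron progenitors.

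The genes described here are 8 genes of the podocyte, all of them chosen by name: Nphs1, Podxl, Synpo, Wt1, Ptpro, Npnt, Cd2ap and Rasl11a. Every probe set whose platform annotation gives one of these symbols was taken, which made 17 of the 45101 probe sets on the array and 8 of the 18194 genes tested. Only Wt1 among them encodes a DNA-binding transcription factor. Only Nphs1 and Cd2ap encode a component of the slit diaphragm or its adaptor, so the set covers the podocyte more widely than its junction.

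The 4 Affymetrix mouse genome arrays came from kidneys of chimeric embryos on embryonic day 15.5. Each wildtype blastocyst had been given 3 to 5 GFP-marked embryonic stem cells lacking Tfrc, the gene of transferrin receptor 1. Kidneys were digested with collagenase and trypsin and the cells sorted by GFP, giving 2 arrays of GFP-positive cells labelled Tfrc-/- (here labelled Tfrc-null) and 2 arrays of GFP-negative wildtype cells. The labels call the 2 arrays of a group biological replicates without naming animals, kidneys or stem cell clones, so p-values measure the spread between these arrays. None of the arrays holds donor cells with Tfrc intact, so the loss of Tfrc and other features of the donor line cannot be told apart. Tfrc itself was not lower on the arrays labelled Tfrc-null: its brightest probe set read 2509 and 3175 on those arrays, against 1759 and 2348 on the wildtype arrays. The log2 difference was 0.47 for this probe set. For its other probe sets it was 0.70, with overlap between groups, and 1.42, without overlap. The deleted part of Tfrc is not stated in the labels, and probes outside it cannot check the genotype.

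The sorted cells were whole kidney suspensions, in which fewer cells of a type and less RNA per cell cannot be told apart. The 6 podocyte markers measured, Nphs1, Podxl, Synpo, Wt1, Ptpro and Clic5, each lay above the control level on all 4 arrays. The control level of an array is the top signal among 27 probe sets for Bacillus subtilis genes, for which a mouse sample holds no target. It was 7.40 and 7.77 on the labelled Tfrc-null arrays and 7.18 and 9.08 on the wildtype arrays. The summed intensity of the 6 markers was 3199 and 2622 on the labelled Tfrc-null arrays, against 3122 and 3029 on the wildtype arrays, so these ranges overlapped. By log2 difference 4 of the 6 were higher, with a median of 0.19. Markers of tubule and blood cells, which the suspension also held, stood lower in 4 of 4 genes of the proximal tubule (median log2 difference -0.39), 3 of 3 erythroid genes (-3.99) and 3 of 4 leukocyte genes (-0.68) on the labelled Tfrc-null arrays. The proximal tubule sums overlapped, at 584 and 440.5 on the labelled Tfrc-null arrays and 464 and 849 on the wildtype arrays.

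Upstream sequences of the 3 genes whose arrays did not overlap between groups are shown so that their base composition can be seen beside their values. Each is the 250 bases before an annotated transcription start, 5′ to 3′ on the strand of the gene, from RefSeq on GRCm38.p6. Capitals mark matches to GNGNGGGNG, a loose form of the zinc-finger motif shared by WT1 and EGR proteins, searched on both strands, with overlapping matches merged into one run.
Nphs1, chr7:30459808-30460057, plus strand: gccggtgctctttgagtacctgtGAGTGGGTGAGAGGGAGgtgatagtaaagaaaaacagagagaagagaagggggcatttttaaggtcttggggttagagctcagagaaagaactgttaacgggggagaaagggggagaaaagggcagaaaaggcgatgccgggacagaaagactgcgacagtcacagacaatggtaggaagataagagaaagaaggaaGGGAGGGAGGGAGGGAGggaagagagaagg
Npnt, chr3:132950292-132950541, minus strand: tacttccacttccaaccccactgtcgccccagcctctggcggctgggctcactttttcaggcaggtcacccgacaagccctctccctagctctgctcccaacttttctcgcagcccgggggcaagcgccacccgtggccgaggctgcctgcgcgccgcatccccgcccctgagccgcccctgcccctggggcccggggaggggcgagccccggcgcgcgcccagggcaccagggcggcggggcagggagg
Cd2ap, chr17:42876425-42876674, minus strand: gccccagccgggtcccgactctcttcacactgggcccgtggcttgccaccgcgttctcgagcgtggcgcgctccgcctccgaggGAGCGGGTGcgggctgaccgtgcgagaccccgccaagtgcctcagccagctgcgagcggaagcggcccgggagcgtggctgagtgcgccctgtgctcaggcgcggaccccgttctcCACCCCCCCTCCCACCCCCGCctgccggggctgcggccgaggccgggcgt
Nphs1 held 5 matches, Npnt 0 and Cd2ap 6, and the GC content was 50.8%, 74.0% and 76.4%. A match was found in 35.8% of the 32841 upstream sequences in the table, so its presence is common. The match is a description of letters and not of a bound site, and its absence from this window says nothing of the factor. Npnt has 2 entries in the table, and the outer one is shown, which lies outside the annotated span of the gene. The windows of Nphs1 and Cd2ap lie inside the annotated span of their gene (chr7:30458207-30488623 and chr17:42748887-42876707). Each of these therefore precedes a start within the gene, and the window before its outermost start was not searched. Entries were found for 5 of the 8 genes: Nphs1, Npnt, Cd2ap, Ptpro and Rasl11a.

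No podocyte gene of the 8 passed the test between groups. With limma, 0 of 8 genes and 0 of 17 probe sets had an adjusted p under 0.05, against 0% of all 18194 genes and 0% of all 45037 probe sets tested. At an unadjusted p under 0.05 the count was 1 of 8 genes (Nphs1), against 8.02% of all genes, and 2 of 17 probe sets (1 each of Nphs1 and Npnt), against 7.24% of all probe sets. The arrays of the groups did not overlap for 3 of the 8 genes: in the labelled Tfrc-null cells Nphs1 was higher and Npnt and Cd2ap were lower. Among all genes 34.9% did not overlap, 20.6% higher and 14.3% lower, which is close to the share among the 8. Of the 17 probe sets 6 did not overlap, 1 higher and 5 lower, against 33.5% of all probe sets, 18.3% higher and 15.2% lower. The 5 lower ones all belonged to Npnt and Cd2ap, and probe sets of one gene are not independent of each other. Log2 differences, labelled Tfrc-null minus wildtype, ran from -0.39 to 0.93 with a median of -0.15, beside a median of 0.044 over all genes. For groups of 2 and 2 arrays the smallest two-sided p of an exact permutation test is 0.333.

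**Figure D1:**
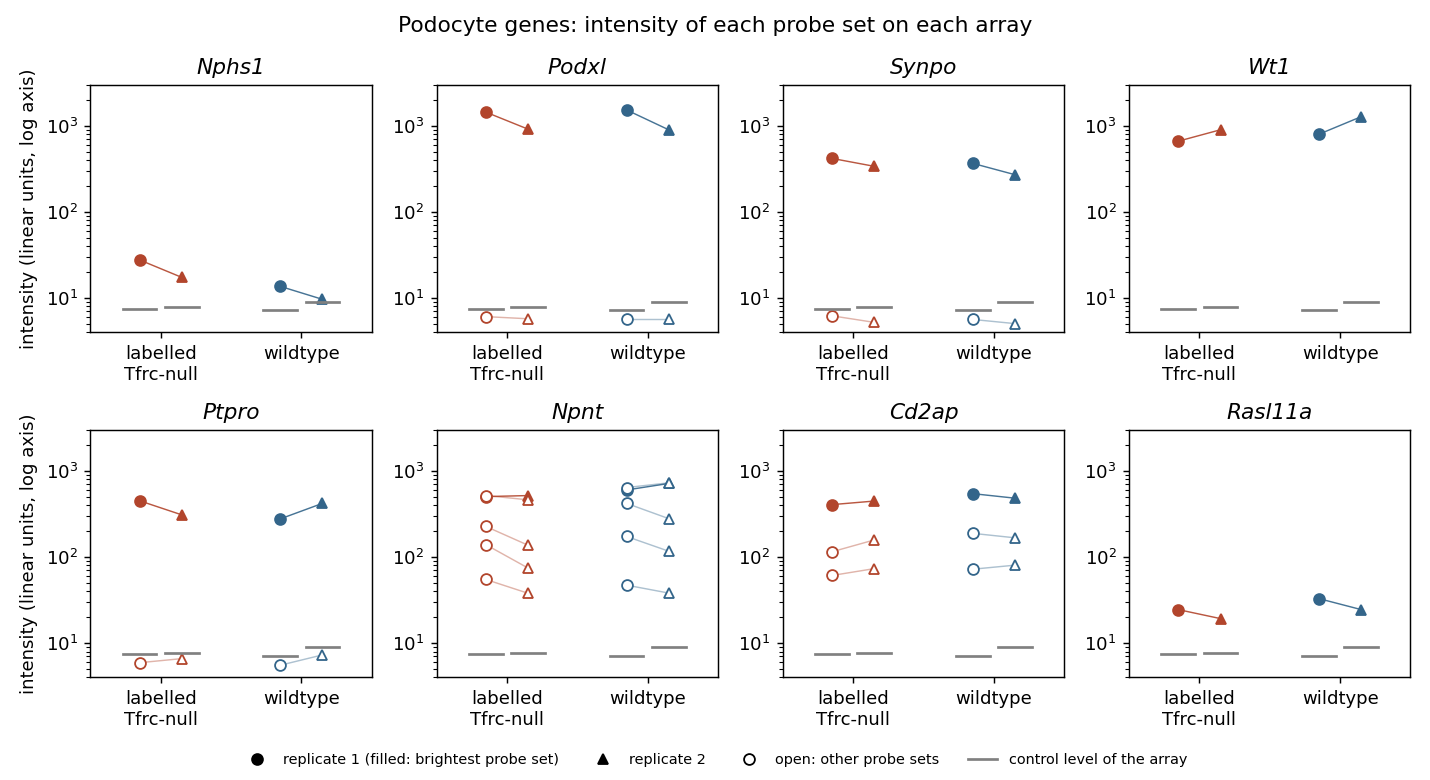
Intensity of every probe set of the 8 genes on each array, on a log axis. Circles are replicate 1 and triangles replicate 2 of each group, joined by a line; filled symbols mark the brightest probe set of a gene, open symbols the others, and grey bars the control level of the array. Nphs1 lies just above the control level on wildtype replicate 2, and 1 probe set each of Podxl, Synpo and Ptpro lies below it on all 4 arrays.

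Nphs1 encodes nephrin, the transmembrane protein whose extracellular domains bridge the slit between foot processes. Its single probe set read 27.7 and 17.4 on the labelled Tfrc-null arrays, against 13.7 and 9.65 on the wildtype arrays. Both labelled Tfrc-null arrays were higher than both wildtype arrays, and the array numbered 2 was the lower one in each group. The means were 22.6 ± 7.32 and 11.7 ± 2.83 (SD, n = 2 each), a 1.91-fold difference, with a log2 difference of 0.93 (SE 0.31, 95% interval 0.14 to 1.73, limma adjusted p = 0.526). Between arrays of the same number it was 1.02 for replicate 1 and 0.85 for replicate 2.

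The signal of Nphs1 was low. It stood at 3.75 and 2.24 times the control level on the labelled Tfrc-null arrays and at 1.90 and 1.06 times on the wildtype arrays. The size of the difference depended on the scale and the arrays used: with 16 added to every intensity before the logarithm it was 0.47, and with each array left out in turn it lay between 0.60 and 1.27. The lowest of these left out labelled Tfrc-null replicate 1, and the highest labelled Tfrc-null replicate 2. The unadjusted p no longer lay under 0.05 with 16 added, without labelled Tfrc-null replicate 1 or without wildtype replicate 2.

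Nephrin belongs to a family of immunoglobulin-domain adhesion proteins, in which the Neph proteins of the Kirrel genes are its partners across the slit. Kirrel3 read 27.9 and 34.2 on the labelled Tfrc-null arrays, against 19.0 and 10.3 on the wildtype arrays, with a log2 difference of 1.15 (SE 0.34, limma adjusted p = 0.460). As for Nphs1, its arrays did not overlap between groups, but here the wildtype arrays differed from each other by 0.89 on the log2 scale. Kirrel1, listed in the gene table as Kirrel, read 129.9 and 76.4 on the labelled Tfrc-null arrays, against 116.4 and 63.0 on the wildtype arrays, and its groups overlapped. Kirrel2 was not analysed here.

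By the brightest probe set of each gene, Nphs1 was the only one of the 8 to span at least 1 on the log2 scale over the 4 arrays. The genes with the most similar profile, by Euclidean distance between centred log2 values over these 4 arrays among 13571 other genes above the control level, were Rassf2 (0.074), Slc22a15 (0.092) and Fam131b (0.093). Rassf2 read 38.0 and 23.0 on the labelled Tfrc-null arrays, against 17.9 and 13.4 on the wildtype arrays. So few arrays give many genes a near match, and the distance is a description only.

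Cd2ap encodes an adaptor protein that links nephrin to the actin cytoskeleton and is also expressed outside podocytes. Of its 3 probe sets, the brightest read 408 and 449 on the labelled Tfrc-null arrays, against 547 and 485 on the wildtype arrays. Both labelled Tfrc-null arrays were lower than both wildtype arrays, by a log2 difference of -0.27 (SE 0.19, 95% interval -0.75 to 0.21, limma adjusted p = 0.865). A second probe set read 115.5 and 158.5 on the labelled Tfrc-null arrays, against 189 and 168 on the wildtype arrays, and it did not overlap either. The third read 61.2 and 73.6 on the labelled Tfrc-null arrays, against 72.4 and 80.7 on the wildtype arrays, and its groups overlapped. All 3 had a lower mean on the labelled Tfrc-null arrays, with log2 differences from -0.40 to -0.19. They read one gene from the same RNA and are not independent of each other.

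Sh3kbp1, which encodes the adaptor most closely related to CD2AP, stood the other way. It read 2514 and 1801 on the labelled Tfrc-null arrays, against 1506 and 1304 on the wildtype arrays, with a log2 difference of 0.60 (SE 0.24, limma adjusted p = 0.626). Neither gene passed the test, and the difference between them was not tested.

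Podxl encodes podocalyxin, the sialomucin of the foot process surface, which endothelial cells also make. Its brightest probe set read 1449 and 919 on the labelled Tfrc-null arrays, against 1538 and 903 on the wildtype arrays. The arrays of each group differed more from each other than the groups did, and the array numbered 2 was lower in both groups. The log2 difference was -0.030 with a 95% interval of -0.94 to 0.88, so these arrays do not settle a change within that range. The second Podxl probe set lay below the control level on all 4 arrays.

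Of the endothelial markers, 6 of 6 had a lower mean on the labelled Tfrc-null arrays, with a median log2 difference of -0.71 and summed intensities of 2044 and 1457, against 2619 and 2126 on the wildtype arrays. With limma, 0% of all 18194 genes and none of the 6 markers passed the adjusted threshold. Their part in the Podxl value was not tested. Of its relatives in the CD34 family of sialomucins, Cd34 read 530 and 519 on the labelled Tfrc-null arrays, against 685 and 647 on the wildtype arrays. Podxl2 read 20.7 and 22.6 on the labelled Tfrc-null arrays, against 18.6 and 11.9 on the wildtype arrays. Cd34 was thus lower and Podxl2 higher without overlap, with log2 differences of -0.34 and 0.54, and neither passed the test.

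Synpo encodes synaptopodin, an actin-binding protein of foot processes and of dendritic spines. Its brightest probe set read 420 and 340 on the labelled Tfrc-null arrays, against 368 and 271 on the wildtype arrays. The groups overlapped, although each labelled Tfrc-null array was higher than the wildtype array of the same number. The log2 difference was 0.26 (SE 0.24, 95% interval -0.36 to 0.87, limma adjusted p = 0.914). Its other probe set lay below the control level on all 4 arrays.

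Ptpro encodes a receptor-type tyrosine phosphatase of the podocyte's apical membrane, known in early work as GLEPP1. Its brightest probe set read 452 and 310 on the labelled Tfrc-null arrays, against 278 and 422 on the wildtype arrays. The groups overlapped and the direction turned with the replicate number, at 0.70 for replicate 1 and -0.44 for replicate 2 on the log2 scale. Over all arrays the log2 difference was 0.13 with a 95% interval of -0.65 to 0.90. Its second probe set lay below the control level on all 4 arrays.

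Of the other receptor-type phosphatases of the same subfamily, Ptprb and Ptprj stood lower on the labelled Tfrc-null arrays. Ptprb, a phosphatase of endothelium, read 127 and 118 there, against 226 and 264 on the wildtype arrays. Ptprj read 78.6 and 68.4 on the labelled Tfrc-null arrays, against 119 and 112 on the wildtype arrays. Both were separated without overlap, with log2 differences of -0.99 (limma adjusted p = 0.258) and -0.66 (limma adjusted p = 0.439), and neither passed.

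**Figure D2:**
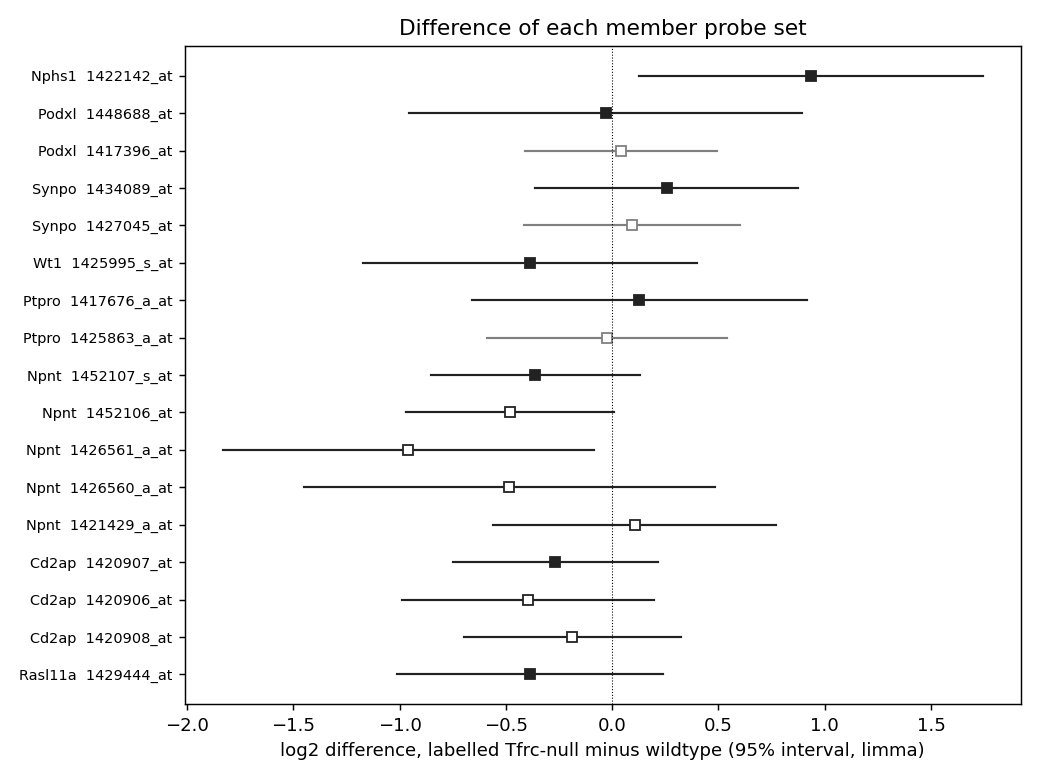
Log2 difference of each of the 17 member probe sets, labelled Tfrc-null minus wildtype, with its 95% interval from the limma fit over all 45037 probe sets. Filled squares are the brightest probe set of a gene, open squares the others, and grey marks probe sets below the control level on all 4 arrays. The intervals of Nphs1 and of 1 Npnt probe set exclude 0 without adjustment for the number of probe sets, and the other 15 include it.

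Wt1 encodes a zinc-finger transcription factor of nephron progenitors, early nephrons and podocytes, and of mesothelium and gonad. Its probe set read 666 and 904 on the labelled Tfrc-null arrays, against 803 and 1284 on the wildtype arrays. The groups overlapped, each labelled Tfrc-null array was lower than the wildtype array of the same number, and here the array numbered 2 was the higher one in both groups. The log2 difference was -0.39 (SE 0.31, 95% interval -1.16 to 0.39, limma adjusted p = 0.885). Its size depended on the arrays used. It was -0.049 without wildtype replicate 2 and -0.73 without wildtype replicate 1. Without labelled Tfrc-null replicate 1 it was -0.17, and without labelled Tfrc-null replicate 2 it was -0.61.

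Nephron progenitor markers, whose cells also express Wt1, had a lower mean in the labelled Tfrc-null cells in 5 of 6 genes, with a median log2 difference of -0.28. Their summed intensity was 1297 and 1036 on the labelled Tfrc-null arrays, against 1278 and 1524 on the wildtype arrays, and the groups overlapped. Their brightest members, Crym, Eya1 and Cited1, had log2 differences of -0.050, -0.18 and -0.79. Of 5 markers of mesothelium and gonad, 3 were lower and 2 higher, with a median log2 difference of -0.064 and sums of 191 and 188 on the labelled Tfrc-null arrays and 188 and 219 on the wildtype arrays. The brightest, Krt19, Upk3b and Amh, had log2 differences of -0.15, 0.34 and 0.14. The part of either cell type in the Wt1 value was not tested.

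Npnt encodes nephronectin, a matrix protein that binds integrin alpha 8. It is made by podocytes and, in the developing kidney, by the ureteric bud, where its binding to the integrin of the surrounding mesenchyme is needed for the kidney to form. Of its 5 probe sets, the brightest read 506 and 520 on the labelled Tfrc-null arrays, against 604 and 719 on the wildtype arrays. Both labelled Tfrc-null arrays were lower, with a log2 difference of -0.36 (SE 0.19, 95% interval -0.85 to 0.13, limma adjusted p = 0.759). A second probe set of nearly equal signal read 520 and 464 on the labelled Tfrc-null arrays, against 644 and 730 on the wildtype arrays, with a log2 difference of -0.48.

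The probe sets of Npnt did not give one size of difference. The furthest difference came from a probe set of intermediate signal, which read 228 and 138 on the labelled Tfrc-null arrays, against 422 and 281 on the wildtype arrays. This was a 1.94-fold lower level, with a log2 difference of -0.96 (SE 0.34, 95% interval -1.83 to -0.087, limma adjusted p = 0.641 over all probe sets). It was -0.89 between the arrays numbered 1 and -1.03 between those numbered 2. A dimmer probe set read 140 and 74.7 on the labelled Tfrc-null arrays, against 174 and 117 on the wildtype arrays, and its groups overlapped. The dimmest read 55.0 and 38.0 on the labelled Tfrc-null arrays, against 47.3 and 38.2 on the wildtype arrays, a log2 difference of 0.11. Whether the probe sets read different transcripts of the gene was not tested.

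The 6 ureteric bud markers all had a lower mean on the labelled Tfrc-null arrays, with a median log2 difference of -1.91 and sums of 1580 and 1301, against 5047 and 4314 on the wildtype arrays. The brightest were Calb1, Cdh1 and Ret, with log2 differences of -2.02, -0.69 and -3.47, each without overlap. The adjusted threshold with limma was passed by 0% of all 18194 genes and by none of the 6 markers. Their part in the Npnt value was not tested. The receptor subunit gene Itga8 read 823 and 1112 on the labelled Tfrc-null arrays, against 877 and 1098 on the wildtype arrays, so that its groups overlapped, with a log2 difference of -0.038. Egfl6, the paralogue of Npnt, read at a mean of 26.4 on the labelled Tfrc-null arrays and 20.3 on the wildtype arrays, with a log2 difference of 0.35.

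Rasl11a encodes a small GTPase of the Ras family. Its probe set read 24.5 and 19.3 on the labelled Tfrc-null arrays, against 32.9 and 24.5 on the wildtype arrays. The lower wildtype array and the higher labelled Tfrc-null array had the same value, so the groups touched. The log2 difference was -0.39 (SE 0.24, 95% interval -1.01 to 0.23, limma adjusted p = 0.821), and -0.42 and -0.35 between arrays numbered 1 and 2. Its relatives Rasl11b and Rasl12 overlapped between groups, with log2 differences of -0.15 and -0.37. The relatives of Synpo did as well, with -0.31 for Synpo2 and 0.30 for Synpo2l.

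For Podxl, Synpo, Wt1 and Ptpro, the arrays of each group differed from each other by more on the log2 scale than the group means did, and for Nphs1, Npnt and Cd2ap by less. The difference between the arrays numbered 2 and 1 had the same sign in both groups for 6 of the 8. Among all genes that share was 66.8%. Nphs1, Podxl, Synpo and Rasl11a were lower on the array numbered 2 in both groups, against 33.8% of all genes, and Wt1 and Npnt were higher. The 3′ to 5′ ratio of the beta-actin controls, a measure of RNA integrity and amplification length, also followed the number, at 5.89 and 7.21 on the labelled Tfrc-null arrays and 5.51 and 6.49 on the wildtype arrays for replicates 1 and 2. Its part in these differences was not tested.

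**Figure D3:**
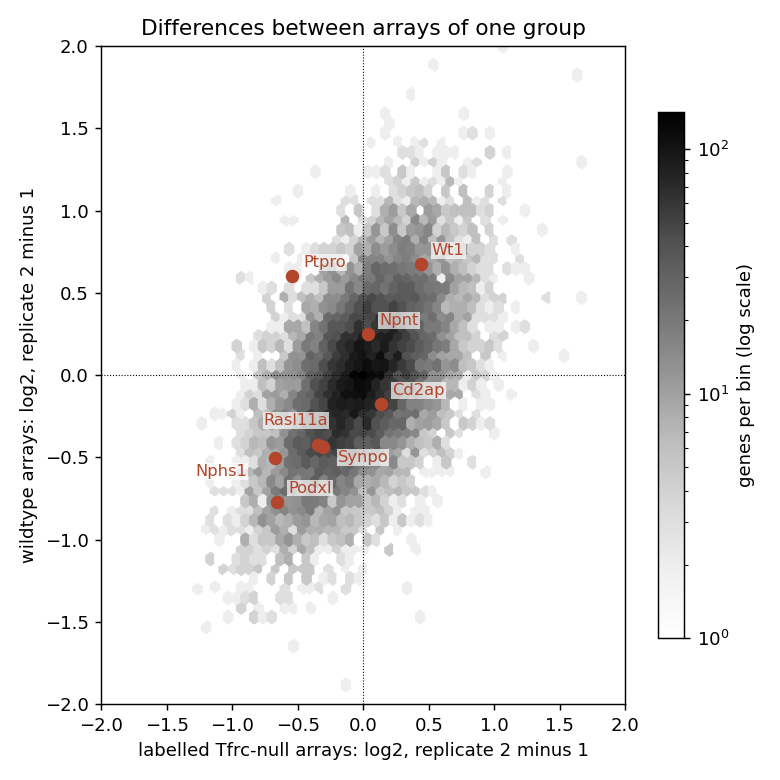
Log2 difference between replicate 2 and replicate 1 within the labelled Tfrc-null group (horizontal) and within the wildtype group (vertical), for all genes (grey, darker for more genes per bin) and the 8 members (red). The axes end at 2 on the log2 scale and leave out 47 of 18194 genes. Podxl and Nphs1 lie at the lower left, Wt1 at the upper right, and Ptpro alone of the 8 lies far into the upper left.

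The other genes of the podocyte did not pass either. Of a list of 73 further genes, 65 were measured and 0 had an adjusted p under 0.05, while 6 (9.23%) had an unadjusted p under 0.05, 3 higher and 3 lower, against 8.02% of all genes. The groups did not overlap for 26 of the 65, or 40.0%, against 34.9% of all genes. The median log2 difference was 0, beside 0.044 over all genes, with 32 higher, 32 lower and 1 (Nes) at 0 within 1e-09.

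Among 13 genes listed as slit diaphragm, 1 (7.69%) had an unadjusted p under 0.05, Kirrel3, against 8.02% of all genes. The count depends on the list: Ddn and Robo2, also tied to the slit diaphragm, were listed under other roles. Both had an unadjusted p under 0.05 with limma. Tjp1, the tight junction scaffold ZO-1, had a log2 difference of -0.31 and Cdh3, P-cadherin, -0.34, both without overlap. Magi1, a scaffold that binds nephrin, stood at 0.26 without overlap, and the kinase gene Fyn, which phosphorylates nephrin, at -0.23 with overlap. The median of the 13 genes was -0.064.

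The 18 genes of the podocyte surface and cytoskeleton had a median log2 difference of 0.16, with 12 of 18 higher, beside 57.4% of all genes. Pdlim2, which encodes an actinin-binding protein, read 298 and 242 on the labelled Tfrc-null arrays, against 155 and 112 on the wildtype arrays, with a log2 difference of 1.03 (SE 0.25, limma adjusted p = 0.340). Ddn encodes dendrin, a protein of the slit diaphragm complex that can move to the nucleus, and read 472 and 272 on the labelled Tfrc-null arrays, against 184 and 171 on the wildtype arrays. Its log2 difference was 1.02 (SE 0.30, limma adjusted p = 0.468). Both genes stood apart without overlap. Plce1, Myo1e and Anln, which are mutated in inherited nephrotic disease in humans, had log2 differences of -0.43, -0.40 and 0.34, each without overlap.

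Of the 11 other transcription factor genes, 0 had an unadjusted p under 0.05, against 8.02% of all genes. Tcf21, a factor of early podocytes and of stroma, read 743 and 543 on the labelled Tfrc-null arrays, against 647 and 389 on the wildtype arrays, and its groups overlapped. Zbtb7c and Nfia were higher without overlap, by 0.88 and 0.52 on the log2 scale. Lmx1b, a factor needed for podocyte differentiation, was lower without overlap, with a log2 difference of -0.19. Dach1 overlapped between groups, with a log2 difference of -0.22. Stromal markers, some of which share the cells of Tcf21, had a positive log2 difference in 6 of 6 genes, with a median of 1.14. Their sums were 6456 and 5826 on the labelled Tfrc-null arrays, against 4998 and 4453 on the wildtype arrays. Most of each sum came from Col1a1, with a log2 difference of 0.20. With limma, 0% of all 18194 genes and none of the 6 markers passed the adjusted threshold. Their part in these values was not tested.

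Genes of the filter's basement membrane and its receptors lay close to 0 for the most part, with a median of -0.048 over 12 genes. Lama5, the laminin chain of mature basement membranes, read 132 and 99.9 on the labelled Tfrc-null arrays, against 273 and 157 on the wildtype arrays. This was the one gene of the 12 (8.33%, against 8.02% of all genes) with an unadjusted p under 0.05, with a log2 difference of -0.85 (SE 0.33, limma adjusted p = 0.609), and ureteric bud and endothelium also make it. Nid2 and Lamb2, both without overlap, had log2 differences of 0.48 and 0.27. Col4a5 and Itga3 stood at -0.24 and -0.15.

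Of 11 secreted and other podocyte genes, Cdkn1c differed most. This cell cycle inhibitor marks podocytes that have left the cell cycle, but other cells of the kidney make it too, and it is imprinted. It read 206 and 100.2 on the labelled Tfrc-null arrays, against 660 and 525 on the wildtype arrays, with a log2 difference of -2.03 (SE 0.38, limma adjusted p = 0.242). Robo2, the SLIT receptor found at the slit diaphragm, did not exceed the control level on either labelled Tfrc-null array and read 11.4 and 18.3 on the wildtype arrays, at least 1.91-fold lower on the labelled Tfrc-null arrays (limma adjusted p = 0.416). Bmp7, Efnb1 and Nebl had log2 differences of -0.54, 0.39 and 0.37, each without overlap.

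**Figure D4:**
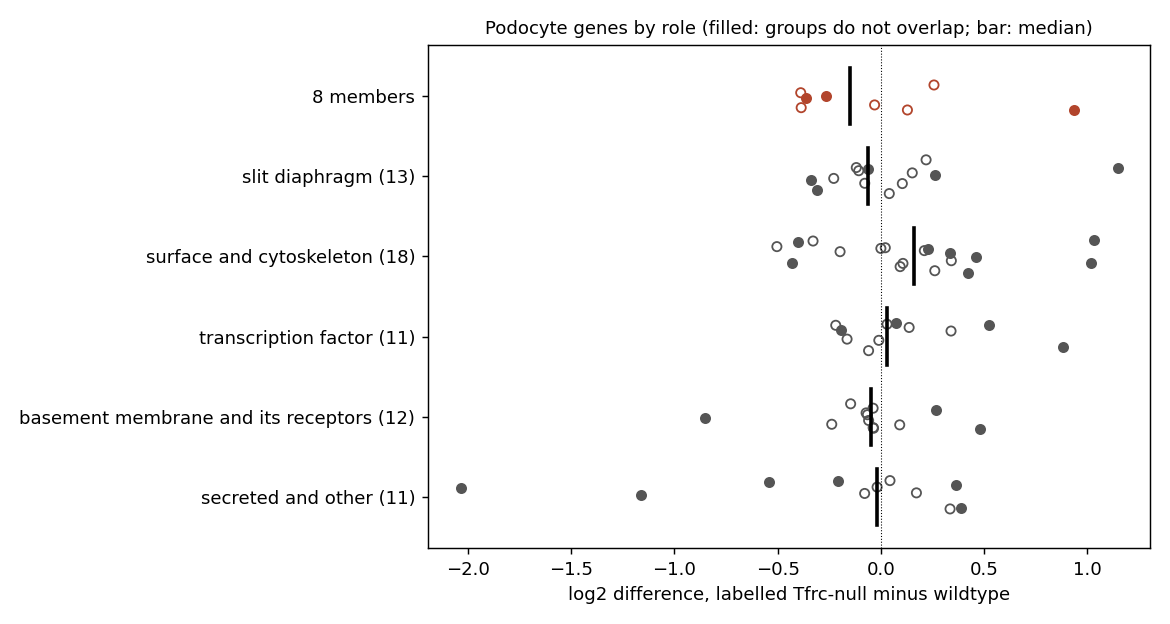
Log2 difference, labelled Tfrc-null minus wildtype, of the 8 members (red) and of 65 other podocyte genes by role. Filled points are genes whose arrays do not overlap between groups, open points those that do, and black bars are medians. Nphs1 lies beyond 0.9 with Kirrel3, Pdlim2 and Ddn, while Cdkn1c (-2.03) and Robo2 (-1.16) lie furthest on the lower side. The medians of all 6 groups lie between -0.15 and 0.16.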

How the data were processed

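The deposited table holds probe set intensities on a linear scale for 4 arrays, and RMA is the only tool named, per the submitters' processing notes. The sources used here give neither its version and settings nor how values returned to a linear scale. RMA can equalise the distributions of arrays, and a shift shared by most genes would then be removed. The median intensities of these arrays still differed. They were 17.5 and 18.8 on the labelled Tfrc-null arrays and 17.9 and 19.3 on the wildtype arrays. How far the deposited values were equalised is therefore not known. Values were converted to log2 without normalizing again. Of 45101 probe sets, 34958 had 1 gene symbol, 932 several and 9211 none, and symbols were updated by Entrez identifier in a RefSeq table. A gene was represented by its brightest probe set. Groups were compared with limma 3.58.1 in R 4.3.3 (lmFit, eBayes, no block), with Benjamini-Hochberg adjustment over 18194 genes, or over the 45037 probe sets left without 64 Affymetrix controls, at 0.05. Folds are 2 to the power of the log2 difference.

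The members, lists and tests were chosen with earlier results of these data known. Named by rule were all members with every probe set, up to 5 genes per role with the smallest p, measured paralogues, up to 3 brightest markers per list and, for members spanning at least 1 on the log2 scale, the 3 most similar genes. The script was tested on simulated data with changes larger than those of the members and no effect of the replicate number. That test does not give the power to find differences of the members' size. With 4 arrays, their number limits the precision.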

Additional observations from a re-analysis of the deposited data

How the results depend on the processing

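No member gene, member probe set or other podocyte gene passed the adjusted threshold with limma under any alternative run: the replicate number as a block, the mean of all probe sets (genes only), quantile normalization, a pseudocount of 16, a filter on dim probe sets, trend and robust variance settings, and each array left out. Unadjusted, 0 to 2 of the 8 genes and 1 to 4 of the 17 probe sets lay under 0.05. Over the same alternatives the share of all genes under 0.05 ran from 4.13% without labelled Tfrc-null replicate 1 to 14.8% with the block, where 2 of 8 members did. The median log2 difference of the 8 genes, -0.15, lay between -0.18 and 0.043 with an array left out, the highest without labelled Tfrc-null replicate 2. That of the 65 other podocyte genes, 0, was 0.030 with the mean of all probe sets and lay between -0.0069 and 0.080 with an array left out, the highest without wildtype replicate 2. Podxl changed sign to 0.0054 with the mean of its probe sets, to 0.30 without labelled Tfrc-null replicate 2 and to 0.35 without wildtype replicate 1, and ranged from -0.41 to 0.35 with an array left out. Ptpro changed sign to -0.14 without labelled Tfrc-null replicate 1 and to -0.17 without wildtype replicate 1, and ranged from -0.17 to 0.43. The other 6 genes kept their direction under the 10 alternatives, and the cause of the changes was not tested beyond the array left out. The labels do not say that a replicate number marks a shared animal or day. Over all genes, deviations of same-numbered arrays correlated with r = 0.512. With the number as a block 0 of 8 members passed, the smallest adjusted p being 0.143 for Nphs1, and 2 of 18194 genes passed. With trend and robust variance settings 2 of 18194 genes and 2 of 45037 probe sets passed. The mean of all probe sets gave 1 gene. Unadjusted, 12 of the 65 other podocyte genes lay under 0.05 with the block, against 14.8% of all genes. With the mean of all probe sets 11 of 65 did, against 8.29%. In the remaining runs on all 4 arrays 6 to 8 of 65 did, against 7.09% to 9.51%.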
